A study of Mus musculus with 5 samples.

Results

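The distal chromosome 6 block is the stretch of mouse chromosome 6 from base 125000000 to base 140000000 (mm9). It held 7712 strand entries, of 1493279 in the whole series, where an entry is 1 CpG cytosine on 1 strand listed for at least 1 library. The entries lay between 125000610 and 139999524; the nearest entries outside were at 124999746 and 140005693. The block was chosen with earlier results of the same comparison known, namely CpGs of lower methylation and positions missing from the libraries titled KO. Its methylation levels and missing positions are therefore given as a description. The counts of calls from a fit across all autosomes, given near the end, rest on the values the selection used and support nothing about the block. The block is called by its place, because the tables list no bases and the origin of the DNA cannot be read from them.

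The assay was enhanced reduced representation bisulfite sequencing of LSK cells (Lin- Sca1+ cKit+), the bone marrow fraction that holds blood stem cells and multipotent progenitors. The 2 libraries titled KO, called targeted libraries 1 and 2, have a genotype label that reads heterozygous (+/-), so the number of targeted alleles is not taken from either label. The other 3 libraries are wild type. All 5 are labelled C57BL/6, no age is stated for them, and whether each library is a separate animal is not stated. The labels do not describe how the targeted allele was made, and the tables hold no marker genes against which the cell type could be checked.

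As background, after bisulfite treatment an unmethylated cytosine is read as T, and only a methylated one keeps its C. The assay cuts DNA at CCGG with MspI and reads inward from the cut ends, so each strand is read from its own fragment end and a stretch of same-strand CpGs is seen by the same short reads. A base change can therefore show up in such tables without any change of methylation: a cytosine replaced by T is read as unmethylated, a cytosine replaced by A or G leaves the table, a CpG that has lost its G is no longer a methylation target, and a lost or gained CCGG removes or adds a whole stretch of entries. Whether any of this holds in the block was not tested, as the tables list no bases. In mice made from stem cells of another strain and crossed to C57BL/6, DNA linked to the targeted gene can remain of the first strain. Distal mouse chromosome 6 carries the natural killer gene complex, whose lectin-like receptor genes differ between inbred strains in number and sequence. Positions were not assigned to genes here, since the annotation at hand is of another genome build.

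Per library, the block had a median coverage of 67 to 91 reads, and each whole library one of 70 to 99. Targeted library 1 listed 6166 entries of the block and targeted library 2 listed 6405, while the wild-type libraries listed 6391, 6546 and 7243. All 5 libraries shared 5267 entries, with a median coverage of 76 and 99 reads in the targeted and of 89, 97 and 79 reads in the wild-type libraries. Of the shared entries 57.5% were under 20% methylated in wild type and 36.7% were at 80% or above, against 65.0% and 29.2% on the other autosomes. Targeted library 1 stood apart from the other libraries genome-wide: over all shared autosomal entries its mean level was 32.0%, against 31.3% in targeted library 2 and 31.1% to 31.2% in wild type. Results that rest on it are given for both targeted libraries.

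Many positions that every wild-type library covered well were missing from the targeted libraries. All 3 wild-type libraries covered 3953 block positions with 50 reads or more, and neither targeted library listed 287 (7.26%) of these. Another 250 (6.32%) were absent from targeted library 1 but listed in targeted library 2, and 0 were absent from targeted library 2 but listed in targeted library 1. Over all autosomes the 2 former shares were 0.0425% and 0.0346%. Outside the block they were 0.162% and 0.0219% on the rest of chromosome 6, and 0.00267% and 0.00497% on the other autosomes. Of the 59 positions of the rest of chromosome 6 that were absent from both, 48 lay between 114456758 and 124966950 and 7 between 140100702 and 140114841, so such positions run past both edges of the block. With the roles exchanged, 0 of 3132, 0 of 3096 and 0 of 3265 block positions with at least 50 reads in the 4 other libraries were absent from wild-type library 1, 2 or 3 alone. An absent position had either fewer than 10 reads or more than about 10% of reads with another base, and the tables do not tell these apart.

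The 2 kinds of absence took turns along the block. The borders at 134 and 139 Mb used below were set after this was seen. From 125 to 129 Mb between 2.54% and 9.70% of positions per window of 1 Mb were absent from both targeted libraries, and from 129 to 134 Mb between 27.3% and 82.6% were. The highest share, in the window from 132 to 133 Mb, was 19 of only 23 positions. From 134 to 139 Mb at most 1.04% per window were absent from both, while 11.8% to 36.8% were absent from targeted library 1 and listed in targeted library 2. From 139 to 140 Mb 16 of 44 positions, or 36.4%, were again absent from both and 0 from targeted library 1 alone. The last position absent from both before the change was at 133765820, and the first that only targeted library 1 lacked was at 133982248. At the other end the last position that only targeted library 1 lacked was at 138696373, and the next absent from both was at 139378863.

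**Figure D1:**
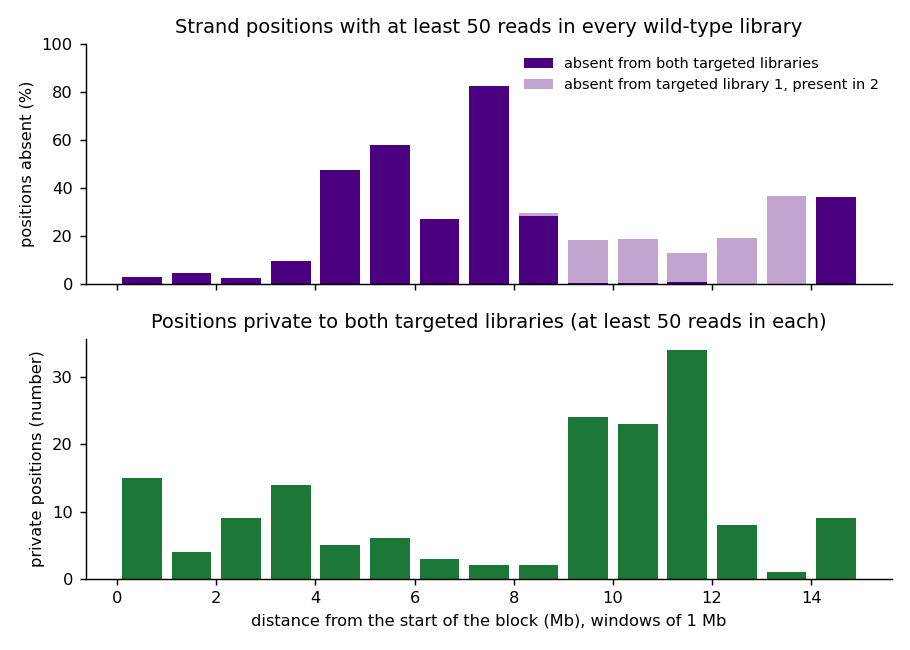
Top, percent of strand positions (50 reads or more in all wild-type libraries) absent from both targeted libraries or from targeted library 1 only, in windows of 1 Mb along the block. Bottom, number of positions private to both targeted libraries; absence from library 1 only fills the windows from 9 to 14 Mb, where absence from both is at most 1.04%.

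Methylation did not mark the missing positions as one kind. Of the 287 positions absent from both targeted libraries, 195 (67.9%) were at 80% or above in wild type and 80 (27.9%) were under 20%. Of the 250 absent from targeted library 1 and listed in targeted library 2, 98 (39.2%) were at 80% or above and 146 (58.4%) under 20%. Among the 3416 well-covered positions listed in both targeted libraries the shares were 30.5% and 64.4%. By definition the missing positions had at least 50 reads in each wild-type library. Median wild-type coverages were 113, 116 and 98 reads at the positions absent from both, against 118, 125 and 104 at those listed in both.

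Most missing positions lay in footprints that were missing as a whole. A footprint is a chain of same-strand entries over gaps of at most 50 bp, close to the length of 1 read. It can hold a single entry, which is then absent as a whole by definition, and such footprints are not given apart. Footprints were counted in the block only. Of 1161 footprints with a well-covered position, 108 (9.30%) had no entry at all in either targeted library, and these held 230 of the 287 positions absent from both. In 24 other footprints, with the remaining 57 positions, both targeted libraries listed some of the CpGs and lacked others. Of the 250 positions absent from targeted library 1 and listed in targeted library 2, 161 lay in 74 footprints that targeted library 1 lacked as a whole, 78 in 22 that it listed in part, and 11 in footprints that also held positions absent from both. The 2 strands were alike, with 149 forward and 138 reverse positions absent from both.

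The 287 positions formed 113 runs of neighbouring same-strand entries, of which 45 were single entries and 42 held at least 3. The longest was a forward run of 11 CpGs from 128312592 to 128312676, unmethylated in wild type (0.104%, 0.145% and 0% in wild-type libraries 1, 2 and 3) and covered there by a median of 201, 187 and 112 reads. A reverse run of 8 CpGs from 127030258 to 127030295 was at 2.06%, 2.58% and 2.38%, with medians of 164, 151 and 178 reads. Both are dense, unmethylated stretches that neither targeted library lists. A forward run of 6 CpGs from 131383786 to 131383820 was likewise low, at 1.05%, 1.83% and 3.32%; it is 1 of 4 runs of 6 CpGs, taken by total coverage. The remaining 2 of the 5 longest runs, of 8 entries each, spanned far more DNA, since no other entry of their strand lay between their CpGs. One ran on the reverse strand from 131383983 to 131518760, at 81.9%, 83% and 83.2% in wild type. The other ran on the forward strand from 131544977 to 131619852, at 93.5%, 94.0% and 93.1%; along 74876 bp of it the targeted libraries listed none of the measured forward CpGs.

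The longest runs that targeted library 1 lacked on its own are named after their values were seen. On the reverse strand 23 consecutive CpGs from 134742070 to 134742190 were missing from it, and 12 on the forward strand from 134742069 to 134742112. For these runs each position needed at least 50 reads in targeted library 2, so that library listed all of them by definition. Its median coverages there were 72 and 76.5 reads and its mean levels 0% and 0.325%. In wild-type libraries 1, 2 and 3 the reverse run had medians of 105, 128 and 58 reads and the forward run 109, 173 and 60. All 4 libraries that hold this dense stretch show it as unmethylated.

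Where only targeted library 1 lacked positions, targeted library 2 had fewer reads than elsewhere. Its coverage was divided by the wild-type mean of the same position and scaled so that the autosomal median was 1. At the 248 positions between 134 and 139 Mb that were absent from targeted library 1 and listed in targeted library 2, the median was 0.499, with quartiles of 0.428 and 0.583. At the 1171 positions of the same stretch listed in both targeted libraries it was 0.992, with quartiles of 0.858 and 1.13. A value under 0.75 was found at 240 (96.8%) of the former and 132 (11.3%) of the latter. The methylation level of targeted library 2 at such positions lay close to wild type: at the 98 with a wild-type level of at least 80% it averaged 95.3%, against 95%, 94.7% and 94.5%, and at the 146 under 20% it averaged 0.363%, against 0.172%, 0.216% and 0.241%. Coverage was lower there while the level was not.

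**Figure D2:**
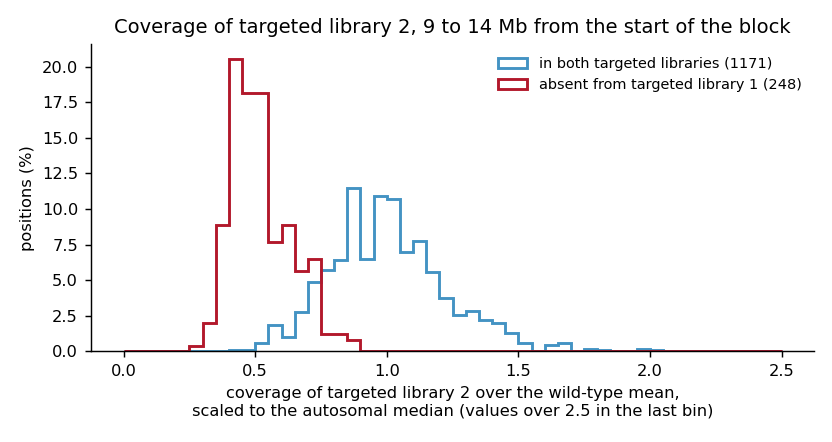
Coverage of targeted library 2 over the wild-type mean, scaled to its autosomal median (x axis), as percent of positions (y axis), for the part of the block 9 to 14 Mb from its start. Positions absent from targeted library 1 centre at 0.499 and those listed in both targeted libraries at 0.992.

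Other positions were listed only in the targeted libraries. Of 3616 block positions with at least 50 reads in both targeted libraries, 159 (4.40%) were absent from all 3 wild-type libraries, against 0.0208% over all autosomes, 0.0166% on the rest of chromosome 6 and 0.00171% on the other autosomes. None was private to a single targeted library at this depth: 0 positions had at least 50 reads in targeted library 1 and no entry in any other library, and 0 in targeted library 2. The private positions ran from 125236674 to 139831579, 79 on the forward and 80 on the reverse strand. Of the 159, 104 lay in 64 footprints with no wild-type entry, and 55 in 21 footprints that wild type also covered in part. Their median distance to the nearest position absent from a targeted library was 12935 bp, and 41 of 159 lay within 300 bp. These distances were not compared with those of other positions.

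The private positions carried ordinary methylation. In targeted library 1 97 were at 80% or above, 56 under 20% and 6 between; in targeted library 2 the numbers were 94, 58 and 7. The 2 libraries differed by a median of 1.61 points per position. Among the 5 longest of the 83 private runs, 8 reverse CpGs from 125444523 to 125444572 were at 0% and 0.0976% in targeted libraries 1 and 2, with median coverages of 70 and 126 reads. A reverse run of 6 CpGs from 136610062 to 136610108 was at 3.12% and 6.24%, with 59 reads in each. The other 3, with 4 or 5 CpGs each, were at 0% in targeted library 1 and at 0.4% to 0.708% in targeted library 2: from 134582310 to 134582352 and from 136776318 to 136776335 on the forward strand, and from 134591312 to 134591327 on the reverse strand. The fifth place was a tie of 2 runs of 4 CpGs, settled by total coverage; the other, on the forward strand from 130934081 to 130934124, was methylated, at 94.0% and 97.1%.

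The coverage of private positions also changed along the block. The ratio of coverage in targeted library 2 to that in targeted library 1 had a median of 1.01 at the 60 private positions from 125 to 134 Mb, 0.472 at the 90 from 134 to 139 Mb and 1.01 at the 9 beyond 139 Mb. At block positions with at least 50 reads in all 5 libraries it was 1.22, 1.12 and 0.864 in these 3 stretches. The minimum of 50 reads in both libraries trims this ratio, since a private position with fewer reads in targeted library 2 is not counted.

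Some CpGs that were methylated in wild type were near 0 in the targeted libraries. Of 1933 block entries shared by all 5 libraries and at 80% or above in the wild-type mean, 40 were under 10% in targeted library 1, and 17 of these were under 10% in targeted library 2 as well. Over all autosomes the shares of such entries were 0.0105% and 0.00448%; the block held all of them, and 0 of 16181 such entries on the rest of chromosome 6 and 0 of 361651 on the other autosomes were under 10% in either targeted library. In the other 23, targeted library 2 was between 30 and 70% at 22 and at 25.5% at 1. At all 40 entries both targeted libraries lay below all 3 wild-type libraries. Their selection made this likely for targeted library 1 at all 40 and for targeted library 2 at the 17. At the other 23 the rule set no limit on targeted library 2, but the block itself was chosen from this contrast. No such share is given here for the other shared entries. The limit of 10% fell in a gap: the highest level under it was 7.14% in targeted library 1 and 4.48% in targeted library 2, and the lowest above it was 14.3% and 15.6%. Both of the latter belong to the forward entry at 130481595, at 92.6% in wild type.

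**Figure D3:**
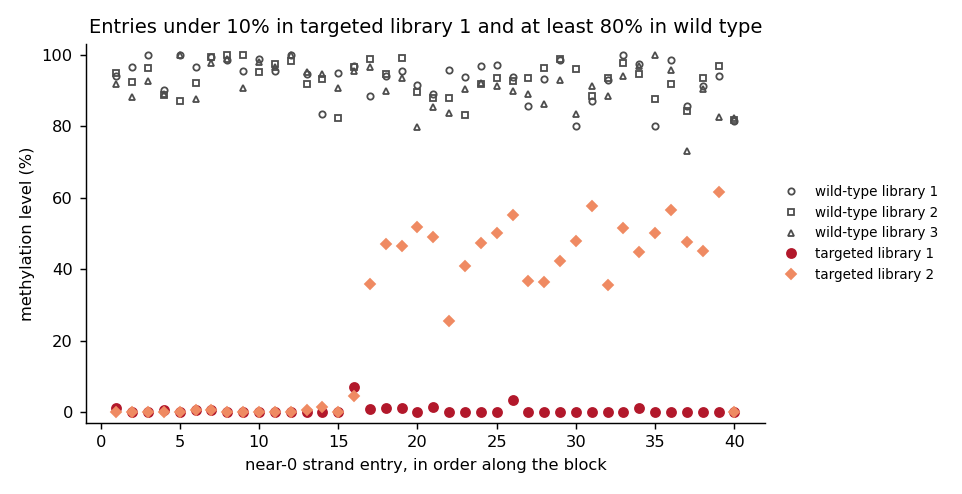
Methylation level (y axis, percent) of each of the 40 near-0 entries in all 5 libraries, in order along the block (x axis). Targeted library 1 stays at 7.14% or below throughout, while targeted library 2 is near 0 at the first 16 entries and the last and between 25.5% and 61.5% at the 23 others.

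The 2 groups of near-0 entries followed each other along the block. Of the 17 entries near 0 in both targeted libraries, 16 ran from 125125695 to 133793443 and the last lay at 139493157. The 22 with targeted library 2 in the middle ran from 134199721 to 139045640. Their median was 0% in targeted library 1 and 47.4% in targeted library 2, against 91.8% in wild type, and the level of targeted library 2 was 0.379 to 0.675 times the wild-type mean, with a median of 0.518. In targeted library 1, 29 of the 40 had no methylated read at all. The first change, between 133793443 and 134199721, overlaps the stretch from 133765820 to 133982248 in which the missing positions changed.

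Among the best covered entries near 0 in both libraries were the 2 strands of the CpG at 127914439. Its forward entry was at 0.645% and 0.699% in targeted libraries 1 and 2 (155 and 143 reads), against 96.5%, 92.1% and 87.7% in wild-type libraries 1, 2 and 3 (114, 89 and 73 reads). Its reverse entry, listed 1 base higher, was at 0.610% and 0.629% (164 and 159 reads), against 99.3%, 99.3% and 97.7%. Both strands thus read as unmethylated in both targeted libraries and as methylated in every wild-type library. The reverse entry at 127692399 was at 0.671% and 0%, against 90.2%, 88.8% and 89.0%, where the 0 of 88 reads allows up to 3.41%. The forward entry at 127995520 was at 0% in both over 61 and 87 reads, and a true level of up to 4.92% or 3.45% would still give no methylated read, while wild type was at 98.5%, 100% and 98.8%. The forward entry at 128871478 was at 0% in both, with upper limits of 1.46% and 2.52% from 205 and 119 reads, where wild type had 98.7%, 95.1% and 97.9%. Reads carry no molecular identifiers, so these limits cover counting error only. None of these entries had overlapping groups, which their selection made likely.

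The near-0 entries before the change at 134 Mb included 3 more among the best covered. The reverse entry at 133516762 was at 0% and 1.55%, against 83.3%, 93.2% and 94.6%. The reverse entry at 133752640 was at 0% in both, against 94.9%, 82.4% and 90.7%. The reverse entry at 133793443, the last before the change, was at 7.14% and 4.48%, against 97.0%, 96.6% and 95.5%. It had the highest level of targeted library 1 among the 40.

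Beyond 134 Mb, apart from the entry at 139493157 (0% in both), the near-0 entries were near 0 in targeted library 1 and at 25.5% to 61.5% in targeted library 2. The reverse entry at 134757513 was at 1.5% and 49.0% in targeted libraries 1 and 2 (200 and 157 reads; Wilson 95% interval of the latter 41.3% to 56.8%), against 89.0%, 88.0% and 85.3%. The CpG at 134985653 was at 0% and 50.0% on the forward strand, against 97.1%, 93.6% and 91.3%, and at 3.33% and 55.2% on the reverse strand, against 93.8%, 92.6% and 89.8%. The forward entry at 138556913 was at 0% and 47.6%, against 85.6%, 84.3% and 73.1%. The reverse entry at 137021618 was at 0% and 56.5%, against 98.5%, 91.8% and 95.6%. The forward entry at 139045639 was at 0% and 45.0% (130 and 129 reads), against 91.2%, 93.4% and 90.3%. In each of these 6 entries targeted library 2 lay between targeted library 1 and all wild-type libraries, which the rule that picked them made likely.

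On average, the neighbours of near-0 CpGs that all 5 libraries listed were close to their wild-type level, which was mostly high. CpGs missing from a library were not counted as neighbours. Of the 40 entries 37 had a shared neighbour. Within 50 bp on the same strand, 76 other entries were shared by all 5 libraries, 69 of them at 80% or above in wild type. These 69 averaged 95.3% and 95% in targeted libraries 1 and 2, against 95%, 95.5% and 94.9% in wild type, with median differences from the wild-type mean of 0.748 and 0.006 points. None of the 76 was itself a high wild-type entry at 70% or below in a targeted library. Within 10 bp, 18 such entries averaged 86.7% and 86.9%, against 86.7%, 87.8% and 87.4%. The reverse entry next to 134199721, for example, lay 3 bp away at 95.1% and 94.3%, against 98.1%, 93.3% and 91.7%, while 134199721 itself was at 0.813% and 35.8%.

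**Figure D4:**
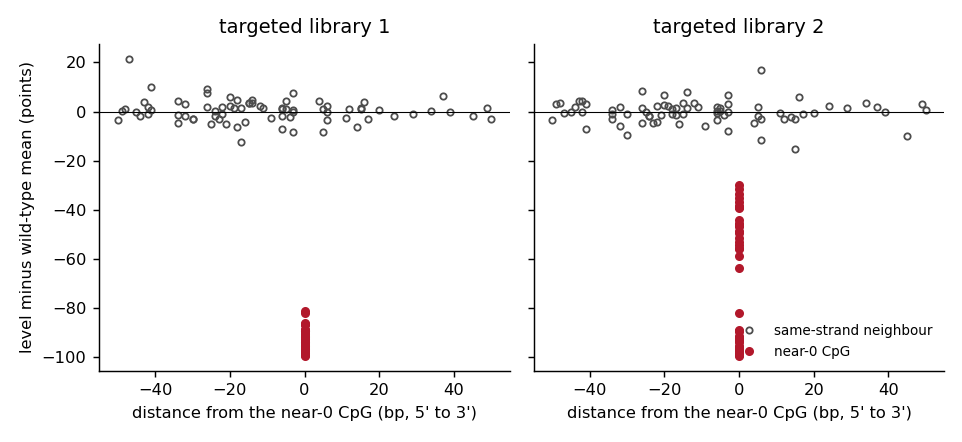
Difference of each targeted library from the wild-type mean (y axis, percentage points) against the distance from a near-0 CpG on the same strand (x axis, bp). Near-0 CpGs sit at distance 0 and from -81.0 to -99.4 points in targeted library 1, while their neighbours lie on both sides of 0, from -12.2 to 21.5 points in targeted library 1 and from -15.1 to 16.9 in targeted library 2.

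In targeted library 1 the opposite strand of a near-0 entry was near 0 or missing wherever wild type listed it. Of the 40 near-0 entries, 19 had an opposite strand listed in wild type: at 14 it was near 0 in targeted library 1 too, at 5 it was missing from targeted library 1, and at 0 it kept its methylation. In targeted library 2 the opposite strand of these 19 was near 0 at 2, in the middle at 12, missing at 3 and above 70% at 2, the CpGs at 134757490 and 137021617. In all there were 288 CpGs of the block with both strands listed in every wild-type library and a mean of at least 80%. In targeted library 1 both strands were above 70% at 199 of these CpGs, near 0 at 7 and missing at 46, while 1 was missing and the other near 0 at 5 and 1 missing and the other above 70% at 30. In targeted library 2 these numbers were 224, 1, 29, 3 and 21, and both strands were in the middle at 6. A strand above 70% stood beside one in the middle at 1 CpG in targeted library 1 and at 4 in targeted library 2. None of the 288 had 1 strand near 0 and the other above 70% in either targeted library.

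The 5 CpGs with 1 strand missing and the other near 0 were spread over the block. At 130761091 the reverse strand was missing from both targeted libraries (86, 99 and 53 reads in wild type) and the forward strand was at 0% and 0.5% (207 and 200 reads), against 94.6%, 91.7% and 95.2%. At 133516761 and 133752639 the forward strand was missing from both, and the reverse strand is among the near-0 entries above. At 134757490 the reverse strand was missing from targeted library 1 only, and the forward strand was at 0% and 51.8%, against 91.4%, 89.5% and 79.8%. At 137021617 the forward strand was missing from targeted library 1, with 10 reads in targeted library 2 and 13 to 21 in wild type, so this missing strand rests on little coverage. Before 134 Mb the 2 targeted libraries thus shared the pattern, and beyond it targeted library 1 showed it alone.

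CpGs of intermediate wild-type level were near 0 too, fewer in number but at a higher share. Of 305 shared block entries between 20 and 80% in wild type, 11 (3.61%) were under 10% in targeted library 1 and 7 (2.30%) in targeted library 2, with 6 (1.97%) in both. Among the 1933 entries of at least 80% the shares were 2.07%, 0.879% and 0.879%. On the other autosomes 226 (0.317%) and 314 (0.440%) of 71317 intermediate entries were under 10% in targeted library 1 and in targeted library 2, and 36 (0.0505%) in both, these 36 at 20 to 40% in wild type. The block entries at 40% or above that were near 0 in both were 4 in number: the reverse entry at 126858116, at 1.08% and 0% against 61.3%, 60.9% and 57.9%, the forward entry at 127785771, at 0% in both against 50.0%, 51.6% and 45.3%, the reverse entry at 131064990, at 5.56% and 0% against 63.4%, 56.7% and 61.9%, and the forward entry at 131737560, at 0% in both against 58.4%, 58.5% and 63.4%. These 4 were chosen after their values were seen, and all lay before 134 Mb. At 131064990 the targeted libraries had only 18 and 23 reads.

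In the fit across all autosomes, the block had more lower than higher calls, a direction that its selection made likely. edgeR's quasi-likelihood test called 47 of 3795 tested block entries lower and 1 higher, where a call needs 25 points or more and an adjusted p (Benjamini-Hochberg) below 0.05. Over the 885521 autosomal entries tested, which include the block, 0.00599% were called lower and 0.00192% higher, or 0.0079% in either direction. On the rest of chromosome 6, 2 of 37115 tested entries were called lower and 5 higher. On the other autosomes 4 of 844611 were called lower and 11 higher. Since the block was chosen from this contrast, nothing is read from the counts. Of the 47 lower entries 39 were among the 40 near-0 entries, and the 40th, at 136769774, had only 10 to 18 reads per library. The single higher entry, on the forward strand at 126741869, was at 92.9% and 88.2% (28 and 17 reads). Wild type was at 16.7%, 0% and 3.85% there, with 12, 11 and 52 reads.

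After such sites were removed, the mean difference of the block went from -0.334 to 0.406 points, but both values rest largely on 1 targeted library each. Removed were the 61 high wild-type entries that fell to 70% or below in a targeted library, their opposite strands, same-strand entries within 50 bp of them, and entries within 50 bp of a well-covered position missing from a targeted library, 334 of 5267 in all. Before removal the block averaged 38.3% and 37.7% in targeted libraries 1 and 2 against 38.3% ± 0.105 (SD, n = 3) in wild type, a mean difference of -0.334 points (-0.0751 in targeted library 1, within the wild-type SD, and -0.593 in targeted library 2). After removal the levels were 38.2% and 37.5% against 37.5% ± 0.107, a difference of 0.406 points, where the other autosomes, without removal, had 0.524. By library, the difference was 0.758 points in targeted library 1 and 0.0549 in targeted library 2, the latter smaller than the wild-type SD; on the other autosomes these were 0.864 and 0.184. The 334 removed entries differed by -11.3 points. Removal by level takes out low entries by its rule, and when entries were removed only for lying near a missing position the difference stayed at -0.309 points. Weighted by reads, the differences before and after removal were 4.62 and 5.2 points. The direction before removal therefore rests on counting each entry equally. No read-weighted value is given for the other autosomes, so these 2 values are not read as particular to the block. The cause was not tested.

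The removal by level takes only entries of at least 80% in wild type, so the class in which the mean moves is set by its rule. Entries of at least 80% in wild type went from a difference of -1.51 points before removal (1933 entries) to 0.403 after it (1763 entries), against 0.520 on the other autosomes. Entries under 20% were at 0.223 points before and 0.234 after removal, against 0.194. Entries from 20 to 80% were at 1.56 points before and 2.16 after, against 4.27, and here targeted library 2 stayed below wild type, by -0.557 points after removal, while it was 1.16 points above it on the other autosomes. After removal 60 entries (1.22%) were still lower by 10 points or more, against 0.431% on the other autosomes. Higher by 10 points or more were 116 (2.35%), against 1.78%. Nothing was removed on the other autosomes. Of the 60, 42 were in the intermediate class.

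**Figure D5:**
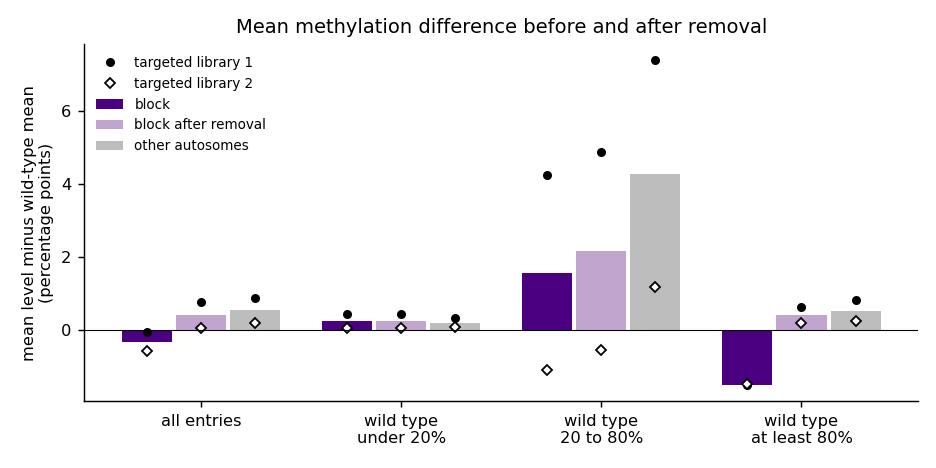
Mean methylation level of the targeted libraries minus the wild-type mean (y axis, percentage points) by wild-type level (x axis). Shown are the block before and after removal and the other autosomes without removal. Bars are the mean of both targeted libraries and points the single libraries; the bar for entries of at least 80% goes from -1.51 to 0.403 points.

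The fit called 6 entries among those left, 5 lower and 1 higher, or 0.169% of 3542 tested. The share called was 0.0189% on the rest of chromosome 6 and 0.00178% on the other autosomes. Over all autosomes, with the block included, it was 0.0079%. An unadjusted p under 0.05 was found for 155 of the entries left (4.38%), against 2.61% over all autosomes and 2.59% on the other autosomes. Nothing is read from these shares, as the block was chosen from this contrast. The lower ones were at intermediate levels in wild type: those at 126858116, 127785771 and 131064990 given above, the forward entry at 133625409, at 1.09% and 1.43% against 27.0%, 32.5% and 48.5%, and the forward entry at 134206539, at 15.3% and 21.3% against 74.4%, 63.5% and 70.8%. In 4 of these 5 both targeted libraries were under 10%, so that they escaped removal only through their wild-type level. The higher one was the entry at 126741869. Only 126858116 and 127785771 kept an edgeR adjusted p under 0.05 whichever wild-type library was left out. Without wild-type library 3 the edgeR adjusted p was 0.164 at 131064990, 0.151 at 133625409 and 0.257 at 134206539. Without targeted library 1 the fit left 2 lower entries, and without wild-type libraries 1, 2 or 3 it left 3, 3 and 2. With near-0 entries removed from a wild-type level of 20% upwards, a limit chosen after the data were seen, 1 lower entry was left.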

How the data were processed

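Per the file headers, the deposited tables give, for each CpG cytosine on each strand, the coverage as a read count and the percent of reads with C and with T; strands were kept apart. Per the submitters' processing notes, Bismark and mm9 (NCBIM37) were used; for Bismark no version is recorded there. Each table lists entries of at least 10 reads and at least 90% C plus T. Methylated read counts were recovered from percent and coverage, and were whole within 0.01 for 99.97% of values in each library.

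Samples were grouped by the labels into 2 targeted and 3 wild-type libraries; since separate animals are not stated, the spread between libraries and the p-values may be technical. edgeR 4.0.16 (R 4.3.3) fitted methylated and unmethylated counts with a factor per library and a common dispersion on all autosomal entries in all 5 libraries, leaving out the highest 0.1% of coverage per library; p-values were Benjamini-Hochberg adjusted over all entries tested. Presence, levels and coverage were computed in Python 3.11.15 (pandas 2.3.3). The scripts were tested on simulated data. Replicate numbers did not pair the libraries (correlation of deviations -0.0129 and -0.00359 over 74459 entries).

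Near 0 means under 10%, low 10 to 30% and middle 30 to 70%, beside a wild-type mean of at least 80%. Named entries are the 8 near 0 in both and the 6 near 0 in targeted library 1 and in the middle in targeted library 2 with the highest minimum coverage, the 5 longest missing and private runs, the 5 CpGs with 1 strand missing and the other near 0, calls left after removal, and the first and last of each class. The borders at 134 and 139 Mb were set after the missing positions were seen. The block, its classes and these rules were chosen with earlier results of these data known. Alternatives covered coverage, read and level limits, the tool (limma 3.58.1), a replicate block and each library left out. The targeted gene is not reported here.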

Additional observations from a re-analysis of the deposited data

How the results depend on the processing

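Over the alternative settings, 37 values stayed within a set tolerance, 15 moved and 2 reversed. For a mean difference the tolerance was the SD between libraries. For a count it was a set ratio to the main value. Thus 141 footprints absent as a whole in place of 108, with gaps of at most 25 bp, were within it. With at least 20 reads in place of 50, 466 positions were absent from both targeted libraries, 350 from targeted library 1 alone, 280 were private and 185 footprints were absent as a whole; with at least 100 reads these were 106, 13, 22 and 32. In the original setting, absence from targeted library 1 alone required at least 50 reads in targeted library 2 and held for 179 positions. Weighted by reads, the mean difference was 4.62 points over all entries of the block and 5.2 after removal, with no such value for the other autosomes. Over entries of at least 80% in wild type only, it was -1.51 before removal. With removal by missing positions only, an alternative chosen after seeing the data, it was -0.309. The cause was not tested. The higher calls fell from 1 to 0 with a coverage minimum of 20. With near-0 entries removed from a wild-type level of 20%, also chosen after seeing the data, 1 lower call was left.

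With a replicate block, 47 entries were called lower and 0 higher, and 6 lower and 0 higher after removal; the numbers do not pair the libraries. limma called 40 lower, and 4 after removal. With each library left out in turn, the mean difference ranged from -0.593 to -0.0751 and, after removal, from 0.0549 to 0.758. Lower calls ranged from 32 to 48 and higher calls from 0 to 4, and after removal from 2 to 5 and from 0 to 3. Without targeted library 2 there were 4 higher calls, and 0 without wild-type library 3. Without targeted library 1, 32 lower calls were made. Entries near 0 in both were 17 without each wild-type library and 15 to 20 under the other settings. Positions with fewer than 50 reads in a wild-type library were not read for absence, and the depth limits the count as the settings above show.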
